A study of Mus musculus with 9 samples.

Results

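The 7 genes described here encode factors through which osteocytes act on osteoclasts and bone cells: Tnfsf11 (RANKL), Tnfrsf11b (osteoprotegerin), Csf1 (macrophage colony-stimulating factor), Vdr (the vitamin D receptor), Sema3a (semaphorin 3A), Efnb2 (ephrin-B2) and Hmgb1 (high mobility group box 1). They were chosen by name from the 56748 genes of the count table, and all 7 were among the 13812 genes tested. RNA was sequenced from MLO-Y4 cells, an osteocyte-like line derived from mouse long bone that represents a single clone. In every group the cells shared a transwell with primary articular chondrocytes from C57BL/6J mice aged 5 to 6 days, so that soluble factors could pass through the membrane while the cell types stayed apart. Control chondrocytes received no stimulation, and the labels give no culture time for this group. In the other groups the chondrocytes had received 10 ng/mL of interleukin-1β (IL-1β) for 6 h and were washed, after which they were co-cultured with MLO-Y4 cells for 24 h or for 48 h. The labels name no allele for any group. Each group holds 3 libraries. The labels of the 48 h samples name the cells MLO-Y5, MLO-Y6 and MLO-Y7, although the protocols name MLO-Y4 throughout. Time and stimulation cannot be told apart in a comparison with control, and nothing in the labels says that libraries of a group came from separate cultures, so p-values measure only the spread between these samples.

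RANKL is the ligand that drives macrophage-lineage precursors to become osteoclasts by engaging RANK on their surface. Osteoprotegerin is a soluble decoy receptor that captures RANKL, so the balance of the pair sets how much ligand is free. Macrophage colony-stimulating factor keeps the same precursors alive and dividing, and osteocytes are a major source of RANKL in adult bone.

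Libraries held 12250628 to 18515456 counts, with 16458398 to 18515456 in the 48 h group, above the range of the others. The cells carried Gja1 (connexin 43), at 1498 CPM in control, and Pdpn (podoplanin), at 212 CPM. Phex, a gene of mineralizing osteocytes, was at 14.6 CPM. Of the other listed osteocyte markers, Cd44 was at 331 CPM, Ackr3 at 114 CPM and Fbln7 at 78.4 CPM in control. Irx5 had 88 to 112 counts per control library. The remaining markers of that list were close to absent. Mepe, Fgf23 and Dkk1 had no count in any library, Sost had 1 count over all 9 libraries and Dmp1 at most 6 counts in a library. CPM are counts scaled to a common library size, with totals corrected by TMM, a trimmed mean of ratios between libraries. Of the osteoclast and macrophage markers, Adgre1, Itgam, Tyrobp and Tnfrsf11a had no count in any library, and the summed level of that list lay at 223 to 234 CPM in control, 183 to 187 CPM at 24 h and 186 to 199 CPM at 48 h. Of the chondrocyte markers, Acan, Cnmd, Matn1, Col9a1, Col9a2 and Ucma had no count in any library. The summed level of the chondrocyte list, most of it Prg4 with Sox9 next, lay at 1684 to 1719 CPM in control, 1568 to 1651 CPM at 24 h and 2131 to 2220 CPM at 48 h. The part of these levels in the results was not tested. In bulk RNA, fewer cells of a kind and less RNA per cell cannot be told apart.

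After 48 h of co-culture Tnfsf11 was higher than in control, Csf1, Vdr, Sema3a and Hmgb1 were lower, and Tnfrsf11b and Efnb2 did not pass the test. A gene was called where the adjusted p of edgeR's quasi-likelihood test was under 0.05. Thus 1 of 7 members was called higher and 4 of 7 lower, where 22.0% and 24.4% of all tested genes were called in those directions and 46.4% in either. After 24 h Tnfsf11 was the only member called, as higher, beside 3.25% of genes called higher, 2.90% called lower and 6.15% in either direction. Between 24 h and 48 h, Tnfsf11 and Efnb2 were called higher and Csf1, Vdr and Hmgb1 lower, beside 23.7% and 25.4% of all genes and 49.1% in either direction. In a joint test of the 3 groups 6 of 7 members were called, all but Tnfrsf11b, beside 51.9% of all genes. By position alone, 1 member lay higher and 4 lower without overlap at 48 h, where 25.7% and 27.4% of all genes did so and 53.1% in either direction. At 24 h 2 members lay higher without overlap and none lower (10.3% and 11.2% of all genes, 21.5% in either direction), and from 24 h to 48 h 2 lay higher and 4 lower (29.1% and 30.3%, 59.4% in either direction). The median log2 fold change of the 7 members was -0.24 at 48 h, -0.07 at 24 h and -0.17 between the times. The same medians over all tested genes were -0.002, -0.004 and -0.002.

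**Figure D1:**
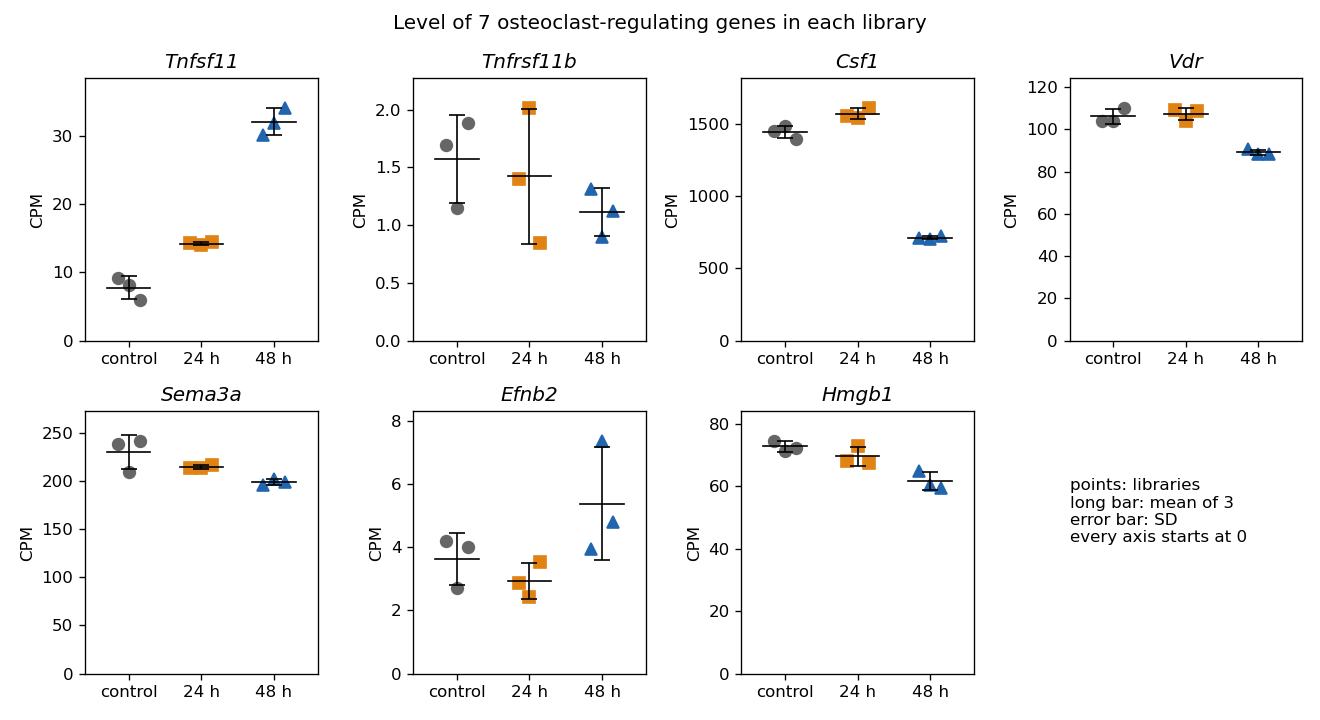
TMM-scaled level in CPM (vertical axis, linear from 0) of the 7 genes in each library, with one panel per gene. Points are libraries, horizontal bars the means of 3 libraries and whiskers 1 SD. Tnfsf11 at 48 h lay at 30.1 to 34.1 CPM, above all control and 24 h libraries, and Csf1 at 48 h lay at 699 to 719.9 CPM, below all of them.

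Tnfsf11 (ENSMUSG00000022015) lies on the minus strand of GRCm39 at chr14:78514885-78545483 and overlaps no other gene of the table. Its level was 9.17, 8.09 and 5.94 CPM in the control libraries, 14.2, 14.0 and 14.4 CPM at 24 h, and 30.1, 31.9 and 34.1 CPM at 48 h. The 3 groups did not overlap, and the levels rose from control to 24 h and again to 48 h. The raw counts behind them were 79 to 146 in control, 204 to 215 at 24 h and 527 to 639 at 48 h. At 24 h the log2 fold change over control was 0.87 (SE 0.13, 95% CI 0.60 to 1.13, adjusted p = 0.000173), a 1.82-fold difference. At 48 h it was 2.04 (SE 0.12, 95% CI 1.80 to 2.28, adjusted p = 1.01e-10), a 4.11-fold difference. Only 0.586% of tested genes differed by more in either direction at 48 h, and 1.89% did so at 24 h. The step from 24 h to 48 h was itself larger than the spread between libraries, at 1.17 (SE 0.10, 95% CI 0.95 to 1.39, adjusted p = 3.7e-08).

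Tnfrsf11b (ENSMUSG00000063727, minus strand, chr15:54114015-54141880) encodes the decoy receptor and was barely expressed. Control libraries gave 1.69, 1.15 and 1.88 CPM, 24 h libraries 1.40, 2.02 and 0.847 CPM, and 48 h libraries 1.31, 0.899 and 1.12 CPM. The groups overlapped in every comparison. These levels rested on 14 to 27 counts per control library, 12 to 31 at 24 h and 15 to 23 at 48 h. The log2 fold change was -0.51 at 48 h (SE 0.34, 95% CI -1.22 to 0.20, adjusted p = 0.237) and -0.15 at 24 h (SE 0.33, 95% CI -0.85 to 0.56, adjusted p = 0.876). At this depth the intervals were wide, and a difference of any size within them remains compatible with the data. Between 24 h and 48 h it was -0.36 (95% CI -1.07 to 0.35, adjusted p = 0.404).

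The ratio of Tnfsf11 to Tnfrsf11b counts, which needs no scaling between libraries, was 5.41, 7.07 and 3.16 in control, 10.1, 6.94 and 17.0 at 24 h, and 22.9, 35.5 and 30.4 at 48 h. All 48 h ratios lay above all others, while the control and 24 h libraries overlapped. On the log2 scale the mean ratio was 2.31 ± 0.59 in control, 3.41 ± 0.65 at 24 h and 4.86 ± 0.32 at 48 h (SD, n = 3). The 48 h ratio was 5.89-fold that of control (two-sided exact permutation test, p = 0.1, the smallest p that 3 against 3 libraries allow). It was 2.74-fold that at 24 h (exact permutation test, p = 0.1), and the 24 h ratio was 2.15-fold that of control (exact permutation test, p = 0.2).

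**Figure D2:**
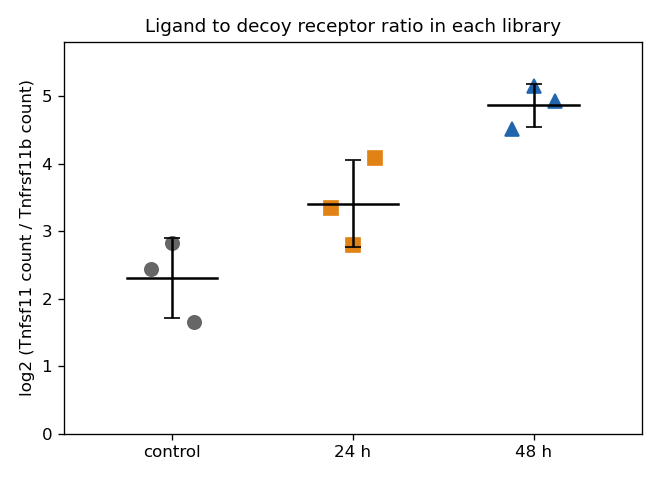
Log2 of the ratio of Tnfsf11 to Tnfrsf11b counts in each library (vertical axis, from 0). Points are libraries, horizontal bars the means of 3 libraries and whiskers 1 SD. The 48 h libraries, with ratios of 22.9 to 35.5, sit above the highest 24 h library, with 17.0, and the highest control library, with 7.07.

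Csf1 (ENSMUSG00000014599, minus strand, chr3:107648364-107667785) encodes the survival factor of osteoclast precursors and was the most abundant member. Its level was 1446, 1483 and 1397 CPM in control, 1555, 1539 and 1612 CPM at 24 h, and 709, 699 and 719.9 CPM at 48 h. No group overlapped another, the 24 h libraries being the highest and the 48 h libraries the lowest. At 48 h the log2 fold change from control was -1.02 (SE 0.04, 95% CI -1.10 to -0.94, adjusted p = 5.48e-13), which is 2.03-fold lower. From 24 h to 48 h it was -1.14 (SE 0.04, 95% CI -1.22 to -1.06, adjusted p = 1.41e-13). At 24 h the value was 0.12 (SE 0.04, 95% CI 0.04 to 0.20) and missed the threshold (adjusted p = 0.066). DESeq2 did call it (adjusted p = 0.0246), as did edgeR without the filter on low counts (adjusted p = 0.0381) or with control replicate 2 left out (adjusted p = 0.0183). Of all tested genes, 5.17% differed from control by more than Csf1 did at 48 h.

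Because Tnfsf11 and Csf1 moved in opposite directions at 48 h, the sequences around their start sites are shown, from 250 bases before to 50 bases after the start of the canonical transcript, read from GRCm39 in the direction of the gene. Both genes lie on the minus strand, at chr14:78545441-78545740 for Tnfsf11 and chr3:107667757-107668056 for Csf1. Capitals mark matches to 7 motifs searched on both strands.
Tnfsf11: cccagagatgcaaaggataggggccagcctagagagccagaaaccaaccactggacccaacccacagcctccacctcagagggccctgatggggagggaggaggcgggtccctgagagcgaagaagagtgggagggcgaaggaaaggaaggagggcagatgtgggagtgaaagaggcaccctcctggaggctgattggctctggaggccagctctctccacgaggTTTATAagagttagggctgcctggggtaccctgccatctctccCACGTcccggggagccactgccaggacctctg
Csf1: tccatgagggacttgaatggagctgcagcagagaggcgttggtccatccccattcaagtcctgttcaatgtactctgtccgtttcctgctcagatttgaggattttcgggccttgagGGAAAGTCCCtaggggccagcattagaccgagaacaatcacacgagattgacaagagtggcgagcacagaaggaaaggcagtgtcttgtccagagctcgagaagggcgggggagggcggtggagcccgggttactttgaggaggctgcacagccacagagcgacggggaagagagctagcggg
The motifs were TGANTCA (AP-1), TTCNNNGAA (STAT), the NF-kappaB consensus, AGGTCA (a nuclear receptor core), ACGTG (a hypoxia response core), TGACGTCA (CRE) and TATAAA (the TATA box). The Tnfsf11 window held TATAAA on the opposite strand from -25 to -20 and ACGTG on the opposite strand from 18 to 22, counted from 0 at the start base. The Csf1 window held the NF-kappaB consensus on the opposite strand from -133 to -124. Of 21717 protein-coding promoters cut in the same way, 13.2% held TATAAA, 20.7% ACGTG and 8.97% the NF-kappaB consensus. AP-1 was held by 7.15%, STAT by 8.81%, AGGTCA by 15.1% and CRE by 2.44%, and none of these letters stood in either window. A match is a description of the sequence and no measurement of binding.

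Vdr (ENSMUSG00000022479, minus strand, chr15:97752306-97808511) encodes the nuclear receptor through which active vitamin D raises RANKL in bone cells. Its level was 104, 104 and 110.3 CPM in control, 109, 104 and 109 CPM at 24 h, and 90.4, 88.5 and 88.4 CPM at 48 h. The 48 h libraries lay below all others, and the control and 24 h libraries overlapped. The log2 fold change at 48 h was -0.25 (SE 0.05, 95% CI -0.36 to -0.14, adjusted p = 0.000677) against control and -0.27 (95% CI -0.37 to -0.16, adjusted p = 0.000355) against 24 h. At 24 h it was 0.01 (95% CI -0.10 to 0.12, adjusted p = 0.93).

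Sema3a (ENSMUSG00000028883, plus strand, chr5:13175381-13652533) encodes a secreted semaphorin that restrains osteoclast formation. Control libraries gave 239, 209.6 and 242 CPM, 24 h libraries 214, 213 and 217 CPM, and 48 h libraries 196, 202 and 199 CPM. The 48 h libraries were lowest, and control replicate 2 lay below every 24 h library. The log2 fold change at 48 h was -0.21 (SE 0.05, 95% CI -0.33 to -0.10, adjusted p = 0.00356). At 24 h it was -0.10 (95% CI -0.21 to 0.01, adjusted p = 0.345), but -0.16 and called without control replicate 2 (adjusted p = 0.0426). The difference of -0.11 between 24 h and 48 h missed the threshold (adjusted p = 0.0972). A fit of those groups alone called it (adjusted p = 0.0241), and so did the fit with control replicate 2 left out (adjusted p = 0.0378).

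Efnb2 (ENSMUSG00000001300, minus strand, chr8:8667434-8711242) encodes a membrane-bound ligand that signals in both directions between bone cells. It was low, at 4.21, 2.70 and 3.99 CPM in control, 2.87, 2.41 and 3.53 CPM at 24 h, and 3.94, 7.37 and 4.80 CPM at 48 h. Every 48 h library lay above every 24 h library, but the 48 h and control libraries overlapped, and 48 h replicate 2 stood above the rest. Counts were 33 to 67 per control library, 37 to 50 at 24 h and 69 to 123 at 48 h. The log2 fold change from 24 h to 48 h was 0.87 (SE 0.24, 95% CI 0.36 to 1.38, adjusted p = 0.00582). Leaving out 48 h replicate 2 gave 0.58 and lost the call (adjusted p = 0.0564). Against control the 48 h value was 0.55 (SE 0.24, 95% CI 0.05 to 1.04, adjusted p = 0.0661). Leaving out 48 h replicate 1 gave 0.72 and a call (adjusted p = 0.022), and so did dropping the filter on low counts (0.54, adjusted p = 0.0236). At 24 h it was -0.32 (95% CI -0.87 to 0.22, adjusted p = 0.56).

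Hmgb1 (ENSMUSG00000066551, minus strand, chr5:148983512-149121299) encodes a chromatin protein that acts as an alarm signal when cells release it. Its level was 74.7, 71.4 and 72.5 CPM in control, 68.3, 73.1 and 67.4 CPM at 24 h, and 65.1, 60.5 and 59.5 CPM at 48 h. The 48 h libraries lay below all others, whereas the 24 h and control libraries overlapped. The log2 fold change at 48 h was -0.24 (SE 0.06, 95% CI -0.36 to -0.12, adjusted p = 0.00259) against control and -0.17 (SE 0.06, 95% CI -0.30 to -0.05, adjusted p = 0.0201) against 24 h. The latter call was lost with library totals as the only scaling (-0.14, adjusted p = 0.0671), without 24 h replicate 2 (-0.13, adjusted p = 0.126), without 48 h replicate 2 (-0.16, adjusted p = 0.0732) and without 48 h replicate 3 (-0.15, adjusted p = 0.101). The 24 h libraries differed from control by -0.07 (95% CI -0.19 to 0.06, adjusted p = 0.607). The gene overlaps Uspl1 on the opposite strand, which had 467 to 644 counts per library, and the table holds 13 Hmgb1 pseudogenes whose summed counts reached at most 7.64% of those of Hmgb1. How counting treated strand and reads with several matches is not given in the sources used here, so the level of Hmgb1 is uncertain to that extent.

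**Figure D3:**
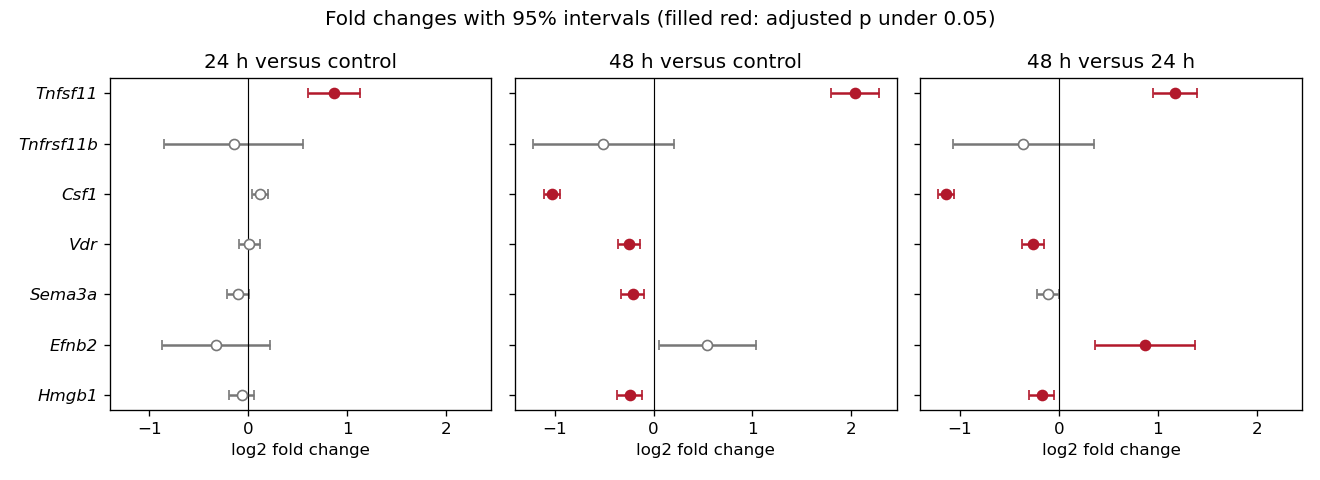
Log2 fold changes of the 7 genes in the 3 comparisons (horizontal axis), from the fit of all 9 libraries. Points are estimates, bars 95% confidence intervals, and filled points have an adjusted p under 0.05. Tnfsf11 stood to the right of 0 in all 3 comparisons, and Csf1 lay at -1.02 and -1.14 in the comparisons of 48 h.

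Levels of different genes were compared as RPKM, here CPM divided by the gene length in the table in kilobases. In control, Csf1 stood at 273 ± 8.18 RPKM, far above Vdr at 18.8 ± 0.644, Sema3a at 16.6 ± 1.29 and Hmgb1 at 14.5 ± 0.338 RPKM. Tnfsf11 followed at 3.46 ± 0.734 RPKM, and Tnfrsf11b at 0.558 ± 0.136 and Efnb2 at 0.530 ± 0.119 RPKM did not differ beyond their spread (SD, n = 3). At 48 h Csf1 was at 134 ± 1.99 RPKM and Vdr at 15.8 RPKM. Tnfsf11, at 14.3 ± 0.897 RPKM, then lay at the level of Sema3a, also 14.3 RPKM, and above Hmgb1 at 12.3 RPKM. Efnb2 at 0.784 RPKM and Tnfrsf11b at 0.394 RPKM remained lowest.

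RANK (Tnfrsf11a), the signalling receptor of osteoclast precursors, had no count in any library. RNA came from MLO-Y4 cells and not from osteoclast precursors, so these data hold no measure of how precursors respond. Of 7 genes on a list of RANKL receptors, partners and sheddases, 4 were tested. Against control, 1 was called higher and none lower at 48 h, beside 22.0% and 24.4% of all genes. At 24 h none was called higher and 1 lower, beside 3.25% and 2.90%. From 24 h to 48 h 3 of the 4 were called higher, where 23.7% of all genes were. The gene called higher at 48 h was Adam17, a protease that releases membrane proteins, with 91.4 CPM in control, 103 CPM at 24 h and 118 CPM at 48 h (log2 fold change 0.37, adjusted p = 3.39e-05). Mmp14, a protease that sheds RANKL, was called lower at 24 h (-0.27, adjusted p = 0.000893) and stood at -0.06 against control at 48 h (adjusted p = 0.302), with a rise of 0.21 from 24 h to 48 h (adjusted p = 0.00101). Lgr4, another RANKL receptor, was at 33.3 CPM in control, 30.1 CPM at 24 h and 36.2 CPM at 48 h, and was called from 24 h to 48 h (0.27, adjusted p = 0.0171), as was Adam17 (0.20, adjusted p = 0.00669).

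The next list holds receptors and transcription factors through which Tnfsf11 is known to be induced. Of 18 listed genes 17 were tested, with 9 called at 48 h, where 46.4% of all genes were called. Of these 7 were higher and 2 lower. At 24 h 3 were called higher and none lower, beside 3.25% and 2.90% of all genes. From 24 h to 48 h 8 were higher and 4 lower, beside 23.7% and 25.4%. The median log2 fold change of the list was 0.11 at 48 h and 0.06 at 24 h. Osmr, the oncostatin M receptor subunit, was at 212 ± 6.96 CPM in control, 255 ± 2.41 CPM at 24 h and 494 ± 17.8 CPM at 48 h. It was called at both times (0.27, adjusted p = 0.000865, and 1.22, adjusted p = 7.23e-13). Il6st, which encodes the shared signalling subunit gp130, was higher at 48 h (0.71, adjusted p = 6.72e-08), as were Lifr (0.65, adjusted p = 9.24e-05) and Il6ra (0.62, adjusted p = 6.1e-07). Stat3, the transcription factor downstream of gp130, rose at 24 h by 0.25 (adjusted p = 0.001) and was 0.62 above control at 48 h (adjusted p = 2.3e-09). Il1r1, the receptor for IL-1, was at 94.1 CPM in control, 100.4 CPM at 24 h and 140.3 CPM at 48 h (0.57 at 48 h, adjusted p = 5.41e-07). The parathyroid hormone receptor Pth1r, named here after its values were seen, was lower at 48 h on 4 to 6 counts per library (-1.64, SE 0.46, adjusted p = 0.00665). The other gene called lower at 48 h was Ptger4, a prostaglandin E2 receptor also named after its values were seen, at -0.20 (adjusted p = 0.0414). The count of 2 lower genes became 1 under several of the alternative settings.

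**Figure D4:**
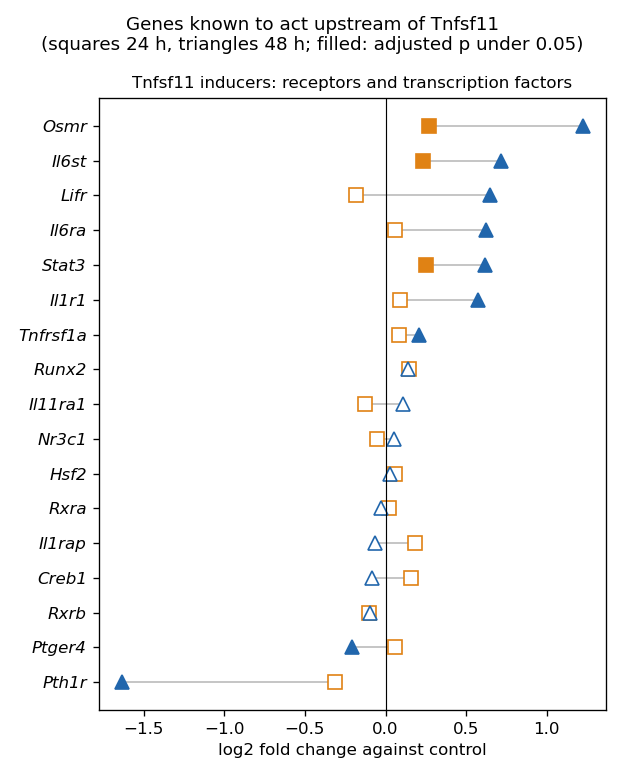
Log2 fold changes against control (horizontal axis) of the tested genes on the list of Tnfsf11 inducers, at 24 h (squares) and at 48 h (triangles). Grey lines join the estimates of a gene, and filled points have an adjusted p under 0.05. Osmr lies farthest to the right at 1.22 and Pth1r farthest to the left at -1.64, both at 48 h.

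The receptor for macrophage colony-stimulating factor, Csf1r, was at 3.31 ± 0.477 CPM in control, 1.84 ± 0.392 CPM at 24 h and 3.24 ± 0.312 CPM at 48 h (SD, n = 3). It was called lower at 24 h (-0.84, adjusted p = 0.0377), a call that DESeq2 did not make, and differed from control by -0.03 at 48 h (adjusted p = 0.933). Il34, the other ligand of that receptor, was at 4.14 CPM in control, 3.44 CPM at 24 h and 4.37 CPM at 48 h and passed no test. Of the 7 genes on the list of this receptor and related factors 3 were tested, and Csf2rb was the gene called higher at 48 h against control (0.33, adjusted p = 0.0246). Csf2 had at most 1 count in a library and Csf3 at most 9.

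Of 19 listed partners and targets of the vitamin D receptor 12 were tested. At 48 h 1 was called higher and 3 lower, beside 22.0% and 24.4% of all genes. None was called at 24 h in edgeR's test, where 6.15% of all genes were called in either direction. The target Spp1 (osteopontin) was at 3881 CPM in control, 4104 CPM at 24 h and 2743 CPM at 48 h (-0.50 at 48 h, adjusted p = 1.32e-09). Bglap (osteocalcin), another target, was at -0.59 (adjusted p = 0.0336), although its libraries overlapped. Pdia3, a membrane-associated binding protein for vitamin D, was at -0.15 (adjusted p = 0.00607) and the corepressor gene Ncor1 at 0.23 (adjusted p = 0.0225), again with overlapping libraries. Cyp24a1, the enzyme that degrades vitamin D and a sensitive target, had at most 5 counts in a library.

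Sema3a acts through neuropilin 1 and plexin A coreceptors. Nrp1 was at 116 CPM in control, 127 CPM at 24 h and 152 CPM at 48 h and was called at 48 h (0.38, adjusted p = 0.000137). Of the plexin A genes, Plxna1 was at 126 CPM in control, 127 CPM at 24 h and 115 CPM at 48 h. Plxna3 was at 35.8, 30.8 and 37.5 CPM and Plxna2 at 15.9, 12.8 and 14.3 CPM in the same order. Plxna4 had no count in any library. Of 30 semaphorins, neuropilins and plexins 22 were tested. At 48 h 9 were called higher and 4 lower, beside 22.0% and 24.4% of all genes. At 24 h 2 were called higher and 3 lower, beside 3.25% and 2.90%. The median log2 fold change of the list was 0.19 at 48 h and 0.05 at 24 h. Where Sema3a was lower at 48 h, its relative Sema3c was higher, at 37.3 CPM in control, 60.5 CPM at 24 h and 80.3 CPM at 48 h (0.69, adjusted p = 6.87e-05, and 1.10, adjusted p = 1.34e-08). Sema5a rose from 40.4 CPM in control to 87.6 CPM at 48 h (1.11, adjusted p = 1.22e-08) and Sema4g from 3.48 to 9.09 CPM (1.38, adjusted p = 2.39e-06). Sema3f was lower at 24 h (-0.45, adjusted p = 0.00988) and higher at 48 h (0.44, adjusted p = 0.000749). Sema7a, at 22.7 CPM in control and 26.3 CPM at 24 h, fell to 13.9 CPM at 48 h (-0.70, adjusted p = 4.07e-06).

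Ephb4, the receptor that ephrin-B2 engages on osteoblasts, was at 17.7 CPM in control, 16.6 CPM at 24 h and 24.9 CPM at 48 h, and was called at 48 h (0.49, adjusted p = 0.000187). Ephb2 had at most 6 counts in a library. Of 21 ephrins and Eph receptors 10 were tested. At 48 h 3 were called higher and 1 lower, beside 22.0% and 24.4% of all genes. None was called at 24 h in edgeR's test, where 6.15% of all genes were called in either direction. The gene called lower was Epha2, at 172 CPM in control, 197 CPM at 24 h and 79.3 CPM at 48 h (-1.12, adjusted p = 5.95e-11). Efna4 was higher at 48 h (0.77, adjusted p = 0.00325).

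Relatives of Hmgb1 also fell at 48 h. Hmgb3 was at 14.0 CPM in control, 16.1 CPM at 24 h and 9.42 CPM at 48 h (-0.57 at 48 h, adjusted p = 0.00131). Hmgb2, named here after its values were seen, was at 297 CPM in control, 296 CPM at 24 h and 239.6 CPM at 48 h (-0.31, adjusted p = 0.000167). Of the receptors of the released protein, Tlr2 (0.38, adjusted p = 0.00265) and Tlr4 (0.47, adjusted p = 7.49e-05) were higher at 48 h, whereas Ager had at most 14 counts in a library (0.29, adjusted p = 0.709). Havcr2, listed with them, was called lower at 48 h, at 2.55 CPM in control and 1.02 CPM at 48 h. It rested on 10 to 23 counts per 48 h library. Cd24a, also listed, was called higher, at 0.723 CPM in control and 2.07 CPM at 48 h. The list of 10 HMGB proteins and receptors had 8 tested genes. At 48 h 4 were called higher and 3 lower, beside 22.0% and 24.4% of all genes. At 24 h 1 was called higher, beside 3.25%. That 1 was Thbd (thrombomodulin), which binds HMGB1, at 299 CPM in control, 408 CPM at 24 h and 365 CPM at 48 h (0.45 at 24 h, adjusted p = 1.01e-05).

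A further list holds other genes whose products promote osteoclasts, secreted factors together with enzymes and a membrane-anchored semaphorin. More of them were called higher than lower at 24 h, and more lower than higher at 48 h. These were not always the same genes. Of 22 listed genes 13 were tested, with 7 called higher and 1 lower at 24 h, beside 3.25% and 2.90% of all genes. At 48 h 2 were called higher and 7 lower, beside 22.0% and 24.4%. The median log2 fold change of the list was 0.41 at 24 h and -0.50 at 48 h. From 24 h to 48 h 9 genes were called lower and none higher, beside 25.4% and 23.7% of all genes. Ptgs2, the inducible cyclooxygenase, was at 50.7 CPM in control, 96.3 CPM at 24 h and 29.6 CPM at 48 h (0.92, adjusted p = 4.86e-07, and -0.78, adjusted p = 6.73e-07). Lif, an IL-6 family cytokine, was at 7.41 CPM in control, 20.5 CPM at 24 h and 5.69 CPM at 48 h (1.46, adjusted p = 1.02e-06, and -0.38, adjusted p = 0.0508). The chemokine gene Ccl2 was at 17.2 CPM, 22.8 CPM and 10.0 CPM in the same order (0.41, adjusted p = 0.0138, and -0.78, adjusted p = 5.84e-06). Ccl7, called lower at 48 h, was at 39.9 CPM in control, 34.8 CPM at 24 h and 17.3 CPM at 48 h. Il6 and Vegfa were called higher at both times, and Cx3cl1 was called lower at both. Il6 was at 0.594 CPM in control, on 4 to 11 counts per library, 2.93 CPM at 24 h and 2.26 CPM at 48 h (2.27, adjusted p = 0.000128, and 1.90, adjusted p = 0.000107). Vegfa, named here after its values were seen, was at 118 CPM, 177 CPM and 163 CPM in the same order (0.58, adjusted p = 4.32e-07, and 0.47, adjusted p = 4.62e-07). Cx3cl1, also named after its values were seen, was at 63.2 CPM, 47.2 CPM and 42.1 CPM (-0.42, adjusted p = 0.000133, and -0.59, adjusted p = 2.13e-07).

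Genes listed as restraining osteoclasts were sparse, with 5 of 16 tested. No source is given here for the listing of Sema3b and Sema3f, so their role in restraining osteoclasts is not established. No effect on osteoclasts was measured here. At 24 h 3 of the tested genes (Sfrp4, Sema3f and Sema3b) were called lower and none higher, beside 2.90% and 3.25% of all genes. At 48 h 2 (Sfrp4 and Sema3f) were called higher and none lower, beside 22.0% and 24.4%. Sfrp4, a secreted Wnt antagonist, was at 32.0 ± 1.25 CPM in control, 24.5 ± 1.86 CPM at 24 h and 138 ± 6.47 CPM at 48 h (SD, n = 3). It was called lower at 24 h, by -0.38 on the log2 scale (adjusted p = 0.00288), and higher at 48 h, by 2.11 (adjusted p = 9.74e-14), beside 2.04 for Tnfsf11.

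**Figure D5:**
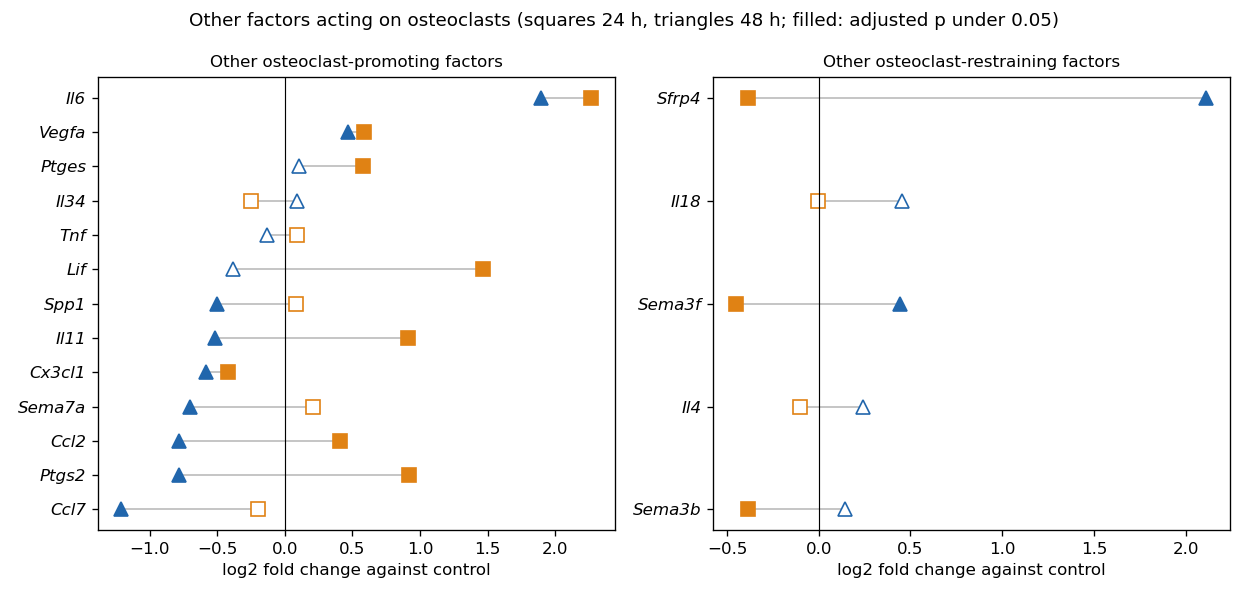
Log2 fold changes against control (horizontal axis) of the tested genes on the lists of other osteoclast-promoting and osteoclast-restraining factors, at 24 h (squares) and at 48 h (triangles), with a panel for each list. Grey lines join the estimates of a gene, and filled points have an adjusted p under 0.05. Ptgs2 and Ccl2 lie to the right of 0 at 24 h and to the left at 48 h, and Sfrp4 lies at 2.11 at 48 h.

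The genes whose profiles over the 9 libraries lay nearest to that of Tnfsf11 were Bcl3, Rasl11a and Gbp5. Likeness was the root mean square difference of log2 CPM, each profile centred on its control mean, over protein-coding genes with a mean of at least 5 CPM. It was 0.248 for Bcl3, a partner of NF-kappaB subunits, 0.270 for Rasl11a and 0.278 for Gbp5, an interferon-inducible GTPase, where the median gene lay at 1.32. Bcl3 differed from control by 0.83 at 24 h (adjusted p = 8.55e-07) and by 1.67 at 48 h (adjusted p = 3.7e-12). Gbp5 was called at 48 h (2.13, adjusted p = 5.35e-10) and not at 24 h (0.47, adjusted p = 0.093). Nearest to Csf1 were Txnrd1 at 0.0474, Cycs at 0.0506 and Eif5a at 0.0588, where the median gene lay at 0.593. Nearest to Efnb2 were Fap at 0.205, Utp14b at 0.223 and Cpeb3 at 0.227, where the median gene lay at 0.488. These measures share their libraries and say nothing of shared control.

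Genes that lie within 500 kb of Tnfsf11 on the chromosome had smaller log2 fold changes than Tnfsf11. At 48 h Dgkh was at 0.58 (adjusted p = 0.000622), Akap11 at 0.36 (adjusted p = 0.00216) and Dnajc15 at -0.37 (adjusted p = 0.00308), and none of them was called at 24 h. Near Tnfrsf11b, Samd12 was at 1.00 at 48 h (adjusted p = 0.00011). Ccn3, a matricellular protein gene there, was lower at 24 h (-0.87, adjusted p = 0.000209) and higher at 48 h (0.42, adjusted p = 0.00564).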

How the data were processed

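Bulk RNA of MLO-Y4 cells was sequenced as directional libraries with paired 150-base reads. The authors deposited a single table of raw counts per gene, which are whole numbers and not normalized, made per the labels and the study's methods by alignment with HISAT2 to GRCm39 (mm39) and counting with featureCounts. The methods also name RSEM, the sources differ on the version of featureCounts and on the sequencer, and the strand setting is not given in the sources used here. Gene coordinates and lengths are those of the table.

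Tests were run in R 4.3.3 with edgeR 4.0.16, which uses limma 3.58.1. The filterByExpr function with a minimum count of 10 kept 13812 genes holding 99.9% of counts, and libraries were scaled by TMM. The quasi-likelihood fit held all 9 libraries and the group of each, with 6 residual degrees of freedom. P-values of edgeR's quasi-likelihood test were adjusted over all tested genes by the Benjamini-Hochberg method at a threshold of 0.05. Standard errors followed from the fold change and the F statistic. The ratio of Tnfsf11 to Tnfrsf11b was compared on the log2 scale by an exact permutation test, with 0.5 added to each count as an alternative. Library totals of 12250628 to 18515456 counts set the precision, and members with few counts have wide intervals. No library repeated another, since the chi-square per degree of freedom between replicates was 2.32 to 8.45.

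The 7 members and the 13 gene lists were chosen with earlier results of these data known. The lists were put together from textbook knowledge, apart from Sema3b and Sema3f as osteoclast-restraining genes, for which no source is given. Genes named in the text are the members, up to 4 called genes with the largest fold change per list and comparison at a mean of at least 1 CPM, receptors of the members, the 3 nearest profiles for members that moved by at least 0.5, and neighbours within 500 kb. Exceptions are marked where they occur, and genes named for having no or few counts were added to account for listed genes that were not tested. Promoter sequences and start sites came from GRCm39 with GENCODE annotation. The scripts were checked on simulated data with 200 changed genes. That is far fewer than the 6408 genes called at 48 h against control, so the check does not cover so wide a change. Alternatives were DESeq2 size factors, library totals alone, no filter, DESeq2 1.42.0, a fit of only the groups compared, a replicate block and leaving out each library.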

Additional observations from a re-analysis of the deposited data

Results flagged for a closer look

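The log2 fold change over control differed between 48 h and 24 h for 5 of the 7 members by edgeR's quasi-likelihood test of that difference, where 49.1% of all tested genes did so. The control cancels from that difference, which is the comparison of 48 h with 24 h given above. As 48 h minus 24 h it was 1.17 for Tnfsf11 (adjusted p = 3.7e-08). Levels of Tnfsf11 rose from control to 24 h to 48 h without overlap of the groups. For Csf1 it was -1.14 (adjusted p = 1.41e-13), with every 48 h library below every 24 h library. Vdr differed by -0.27 (adjusted p = 0.000355), also without overlap. Efnb2 differed by 0.87 (adjusted p = 0.00582), a call that was lost without 48 h replicate 2, whose level was the highest. Hmgb1 differed by -0.17 (adjusted p = 0.0201), a call lost under 4 of the 15 alternatives. The labels of the 48 h samples carry other cell line names than the rest, and that group also had the highest library totals, neither of which can be told apart from the time of co-culture.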

How the results depend on the processing

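The 5 members called at 48 h against control and Tnfsf11 at 24 h kept their calls under all 15 alternatives. Without the filter on low counts, 2 members were higher at 48 h (Efnb2 added), 2 were higher at 24 h (Csf1 added), and 759 genes instead of 449 were higher at 24 h. With DESeq2, 2 members were higher at 24 h, again with Csf1 added. A fit of only the 24 h and control libraries called 254 genes lower at 24 h, against 400 in the fit of all libraries. Leaving out 1 library in turn gave 2616 to 3200 genes higher and 2839 to 3239 lower at 48 h, 295 to 873 higher and 222 to 602 lower at 24 h, and 2892 to 3596 higher and 2991 to 3640 lower from 24 h to 48 h. The 24 h counts were lowest without 24 h replicate 3 (295 higher, 223 lower) and 24 h replicate 1 (222 lower) and largest without control replicate 3 (873 and 602). Among the members the same step gave 1 to 2 higher and 4 lower at 48 h, 1 to 2 higher and 0 to 1 lower at 24 h, and 1 to 2 higher and 2 to 4 lower between the times. The log2 ratio of Tnfsf11 to Tnfrsf11b then differed by 2.24 to 2.82 at 48 h, 0.763 to 1.41 at 24 h and 1.15 to 1.80 between the times. Signs turned for Tnfrsf11b at 24 h, which ranged from -0.48 to 0.11 when a library was left out and was 0.11 without 24 h replicate 3, and for Vdr at 24 h with library totals alone (-0.0045). Neither was called in any setting. The cause was not tested for any of these changes. Of 390 list counts recomputed, 25 moved by over 1.5 times.

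Replicate numbers showed no sign of pairing the libraries, although 3 libraries per group are too few to exclude it. Correlations of same-numbered libraries' deviations from their group means ran from -0.049 to 0.077, beside -0.097 to 0.095 for the other pairs. A library correlated best with its own number in 4 of 9 group pairings. With the replicate block, 3088 genes were higher and 3380 lower at 48 h, 538 higher and 420 lower at 24 h, and no call of a member changed.

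Depth limits Tnfrsf11b and Efnb2 most, with at most 31 and 123 counts in a library. The design does not separate time from stimulation.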

Other observations

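The osteocyte and osteoblast markers that were expressed did not move as a block. Of 12 osteocyte markers 7 were tested by edgeR's quasi-likelihood test. At 48 h 5 were called higher and 1 lower, beside 22.0% and 24.4% of all genes. At 24 h 2 were called higher and 1 lower, beside 3.25% and 2.90%. Ackr3, a scavenging chemokine receptor, was at 114 CPM in control, 171 CPM at 24 h and 193 CPM at 48 h (0.76 at 48 h, adjusted p = 1.15e-09). Gja1, the gap junction gene, was at 1498 CPM in control and 2413 CPM at 48 h (0.69, adjusted p = 1.14e-10), while Cd44, a hyaluronan receptor gene, was at 331 and 223 CPM (-0.57, adjusted p = 3.34e-08). Fbln7 was lower at 24 h (-0.37, adjusted p = 0.00117) and higher at 48 h (0.50, adjusted p = 2.74e-06). Of 10 osteoblast markers 9 were tested. Beside the same shares of all genes, 1 was called higher and 5 lower at 48 h and 2 lower at 24 h. Alpl, the bone alkaline phosphatase gene, was at 28.1 CPM in control and 21.6 CPM at 48 h (-0.38, adjusted p = 0.00112).

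Among the 17 osteoclast and macrophage markers 5 were tested. At 48 h 1 (Itgb3) was called higher and 2 (Nfatc1 and Ctsk) lower, beside 22.0% and 24.4% of all genes. At 24 h 2 were called lower, beside 2.90%. Nfatc1, the transcription factor of osteoclast differentiation, was at 58.5 CPM in control and 36.5 CPM at 48 h (-0.68, adjusted p = 1.56e-07). Ctsk, the osteoclast protease that osteocytes can also express, was at 136 CPM in control, 97.9 CPM at 24 h and 112 CPM at 48 h (-0.47 at 24 h, adjusted p = 8.41e-05). Of 15 chondrocyte markers 6 were tested. Beside the same shares of all genes at 48 h, 4 were called higher and 1 lower. None was called at 24 h, where 6.15% of all genes were called in either direction. Prg4 (lubricin) was at 1576 CPM in control and 2047 CPM at 48 h (0.38, adjusted p = 8.64e-08). Sox9, the chondrocyte transcription factor gene, was at 112 CPM in control, 104 CPM at 24 h and 124 CPM at 48 h (0.14 at 48 h, adjusted p = 0.0449). Col11a1, a cartilage collagen gene, was at 2.04 CPM in control and 4.16 CPM at 48 h (1.02, adjusted p = 0.000595), and Matn3 was lower at 48 h (-1.25, adjusted p = 0.00155). The cartilage gene Acan had no count in any library.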
